A study of Danio rerio with 6 samples.

Results

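The glycine tRNAs of the zebrafish cytoplasm were followed through early development as the read sequences that the authors labelled with the amino acid glycine. These were 285 of the 3021 listed cytoplasmic read sequences, 198 under the anticodon GCC, 64 under CCC and 23 under TCC. Total RNA was taken from about 50 to 100 wild-type eggs or embryos of the TU strain per library, with 1 library for each of 6 stages. These were the mature egg and the 1cell and 256cell stages, followed by sphere, shield and 24hpf (24 hours after fertilisation), and lists of 6 values are in this order. RNA of 60 to 120 nt was cut from a gel, deacylated, end-repaired and treated with a mixture of ALKB enzymes, which remove some base methylations that stop reverse transcription. All groups share genotype, strain and treatment, and stage is the only difference that the labels give. Every value is an average over whole eggs or embryos, so fewer cells that use a tRNA and less of it per cell cannot be told apart. No stage was repeated, so differences between stages could not be set against replicate error or told apart from differences between libraries. Each interval is an exact 95% interval and covers counting error only; amplified reads carried no molecular identifiers and cannot be taken as independent molecules, so the true error is larger.

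A tRNA carries 1 amino acid to the ribosome and reads a codon through its anticodon. Glycine has a family of codons that differ in their last base. Gly-GCC reads the codons ending in C and, by wobble pairing, in U, Gly-CCC reads the codon ending in G, and Gly-TCC reads the codon ending in A and, by wobble, others of the family. Vertebrate genomes hold many genes for each anticodon. Genes that share an anticodon and differ elsewhere give isodecoders, tRNAs of different sequence with the same anticodon. A new transcript is trimmed at both ends and receives the tail CCA, to which the amino acid is later attached. In vertebrates Gly-GCC is known as a frequent source of stable fragments made from the 5′ side of the tRNA, which are shorter than the RNA taken here. In the RefSeq annotation of the GRCz12tu assembly, a different build from the authors' GRCz11, 293 genes are named for Gly-GCC, 138 for Gly-CCC and 211 for Gly-TCC. Gene positions were not used here.

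Nearly all reads began a few bases inside the tRNA, so 2 complete reads of Gly-GCC are shown first to give the numbering. All positions count from 1 at the 5′ end of these 74-nt reads, which is not the standard tRNA numbering. Capitals mark the anticodon, in both reads at positions 33 to 35. The second read differs from the first by C2T, at the second base of the acceptor stem.
Gly-GCC complete read: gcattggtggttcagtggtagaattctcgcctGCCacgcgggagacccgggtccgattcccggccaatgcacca
Gly-GCC complete read with C2T: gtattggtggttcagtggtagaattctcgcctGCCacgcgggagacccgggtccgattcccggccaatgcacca

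Read sequences of an anticodon were joined into a variant when they overlapped the variant's leading sequence exactly over at least 50 nt, and variants were numbered by their mean RPM (reads per library, scaled by its depth). Named here are variants that held at least 5% of their anticodon's reads in any library, 5 for Gly-GCC, 3 for Gly-CCC and 2 for Gly-TCC. The sequences below are the most abundant read of each Gly-GCC variant, starting at position 8, with the anticodon and every base that differs from variant 1 in capitals. They show that these named variants combine only a few single-base changes. A45G lies between the anticodon stem and the T stem, in the variable region. C53T is the second base of the T loop, a place where most tRNAs carry pseudouridine, read as T. A56T is the fifth base of that loop, where an adenosine is commonly methylated in tRNAs.
Gly-GCC variant 1: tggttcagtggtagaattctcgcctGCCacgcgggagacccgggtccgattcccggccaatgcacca
Gly-GCC variant 2 (A56T): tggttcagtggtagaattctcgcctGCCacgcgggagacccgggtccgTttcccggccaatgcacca
Gly-GCC variant 3 (A45G, C53T): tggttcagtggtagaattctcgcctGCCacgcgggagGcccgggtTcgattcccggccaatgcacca
Gly-GCC variant 5 (C53T): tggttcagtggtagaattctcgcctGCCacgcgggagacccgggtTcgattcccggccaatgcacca
Gly-GCC variant 6 (A45G, C53T, A56T): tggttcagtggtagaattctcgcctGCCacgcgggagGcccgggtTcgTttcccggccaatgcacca

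The Gly-CCC and Gly-TCC variants are shown with the capitals marked in the same way against variant 1 of their own anticodon. Gly-CCC has nearly the same body as Gly-GCC: its variant 1 is 1 substitution away from a Gly-GCC variant with C37T, and its variant 2 is 1 substitution away from Gly-GCC variant 1, in both cases within the anticodon. Gly-TCC variants 1 and 2 have another body, at least 16 substitutions from any Gly-GCC variant without gaps. Their anticodon lies 1 base further, at 34 to 36. Gly-CCC variant 5 and Gly-TCC variant 3 stayed under 5% and were chosen after their values were seen. The first is a Gly-CCC with C53T. The second carries a TCC anticodon on a body like that of Gly-CCC variant 3, 2 substitutions away, and only its anticodon is capitalised. It is 3 substitutions from the nearest Gly-GCC variant.
Gly-CCC variant 1: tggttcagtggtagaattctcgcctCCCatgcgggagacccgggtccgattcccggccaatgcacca
Gly-CCC variant 2 (T37C): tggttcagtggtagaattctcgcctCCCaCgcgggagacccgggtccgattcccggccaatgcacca
Gly-CCC variant 3 (T37C, G49A, C61T): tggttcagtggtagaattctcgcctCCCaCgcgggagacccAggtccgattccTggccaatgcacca
Gly-CCC variant 5 (T37C, C46G, C53T): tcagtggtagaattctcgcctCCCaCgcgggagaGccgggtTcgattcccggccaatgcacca
Gly-TCC variant 1: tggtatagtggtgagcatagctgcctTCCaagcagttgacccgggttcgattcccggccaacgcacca
Gly-TCC variant 2 (A57T): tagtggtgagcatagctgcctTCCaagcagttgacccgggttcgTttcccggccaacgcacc
Gly-TCC variant 3: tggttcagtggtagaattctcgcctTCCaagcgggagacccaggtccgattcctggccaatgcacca

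Glycine tRNAs were a small share of the listed cytoplasmic reads, and the smallest at 24hpf. They made up 2.42% in egg, 2.32% at 1cell and 1.97% at 256cell, and 2.17% at sphere, 1.50% at shield and 0.857% at 24hpf (interval 0.848 to 0.865). These shares are set against a total of which the histidine tRNA His-GTG held 81.7% to 89.1%. Without His-GTG the glycine share was 22.3% in egg, between 9.76% and 15.3% at the next 4 stages, and 7.78% at 24hpf. Libraries held 3324546 to 7096801 reads, of which 37046 to 114214 were glycine reads, so counting error was small for the abundant variants, and 3 reads, taken as the floor, were worth 0.423 to 0.902 RPM. The table listed no sequence with fewer than 19 reads over all libraries, so rarer sequences are missing from every sum.

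The 3 anticodons kept their order of abundance in egg, 1cell, 256cell, sphere and shield, with Gly-GCC far ahead, and Gly-CCC and Gly-TCC changed places at 24hpf. Gly-GCC stood at 13773 RPM, 7507, 8823, 9155, 9065 and 5921 from egg to 24hpf. Gly-CCC stood at 1708, 1785, 1621, 1713, 1206 and 274 RPM in the same order. Gly-TCC stood at 613, 545, 700, 681, 676 and 452 RPM. The egg library was the highest for Gly-GCC, and the 24hpf library was the lowest for all 3 anticodons.

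As shares of the cytoplasmic total (log2 of RPM + 1, divided by that total), Gly-CCC was 7.27-fold lower at 24hpf than in egg, at -2.86 on the log2 scale (interval -2.94 to -2.79). Gly-GCC was 2.72-fold lower, at -1.44 (-1.46 to -1.43). At least 2-fold lower were 15 of the 35 anticodons that averaged 10 RPM or more (42.9%), 2 of them glycine anticodons, so a call of this size was common among all tRNAs. At least 2-fold higher were 7, and with median-ratio scaling 10 were higher and 9 lower. Gly-TCC was at -0.66 (-0.73 to -0.60), which is itself the median of the 35. With median-ratio scaling in place of shares Gly-GCC was at -0.70, short of 2-fold, Gly-CCC at -2.12, and Gly-TCC at 0.078, on the other side of 0. Of 7 other tRNAs known as sources of 5′ fragments, 1 was at least 2-fold higher and 1 at least 2-fold lower, with a median of 0.40 beside -0.66 for all 35 anticodons.

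The share of Gly-CCC went down most at the 2 last steps. It was at -0.96 (log2) at shield against sphere, just under 2-fold, and at -2.22 at 24hpf against shield (interval -2.30 to -2.14). At least 2-fold lower were 8 anticodons at the first of these steps (22.9%) and 12 at the second (34.3%), and Gly-CCC was the only glycine anticodon past that size at the second. Gly-GCC was at -0.47 and -0.70 and Gly-TCC at -0.47 and -0.66 at these steps, beside medians of -0.61 and -0.66 over the 35 anticodons. At the second step Gly-TCC is itself the median. The 3 earlier steps of Gly-CCC were at 0.71 at 1cell against egg, -0.56 at 256cell against 1cell and 0.16 at sphere against 256cell.

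Taken as means of the 3 later against the 3 earlier stages, Gly-CCC was at -1.35, Gly-GCC at -0.61 and Gly-TCC at -0.37. Gly-CCC was 1 of 9 anticodons at least 2-fold lower (25.7%). Without the 24hpf library it was at -0.45. An edgeR quasi-likelihood test with Benjamini-Hochberg adjustment, added after the data were seen and treating stages as if they were replicates, called 1 of 38 anticodons (2.63%), which was not a glycine tRNA. The lowest adjusted p of a glycine anticodon in edgeR was 0.407.

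The balance within glycine does not depend on the total, but it rests on the authors' anticodon labels. A few sequences labelled Gly-GCC differ at position 33, the first anticodon base. A variant with C13T and G33C held at most 0.678% of Gly-GCC reads in any library, and 1 with G33C and C53T at most 0.0385%. These carry the bases CCC there, and a variant with G33A held at most 0.269%. All were counted under their label. Gly-GCC held 85.6% of glycine reads in egg, 76.3% at 1cell and 79.2% at 256cell, and 79.3% at sphere, 82.8% at shield and 89.1% at 24hpf. Gly-CCC held 10.6%, 18.1%, 14.5%, 14.8%, 11.0% and 4.12% (exact Clopper-Pearson interval at 24hpf 3.93 to 4.32). Gly-TCC held 3.81%, 5.54%, 6.28%, 5.89%, 6.18% and 6.80%. There were 8.06 Gly-GCC reads for each Gly-CCC read in egg, 4.21 at 1cell and 21.6 at 24hpf. Gly-CCC outnumbered Gly-TCC 1.78-fold to 3.28-fold until shield and reached 0.606 of it at 24hpf (0.570 to 0.644). For comparison, Gly-GCC has 45.6%, Gly-CCC 21.5% and Gly-TCC 32.9% of the annotated genes of these 3 anticodons, so the reads were not in proportion to the genes in any library.

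**Figure D1:**
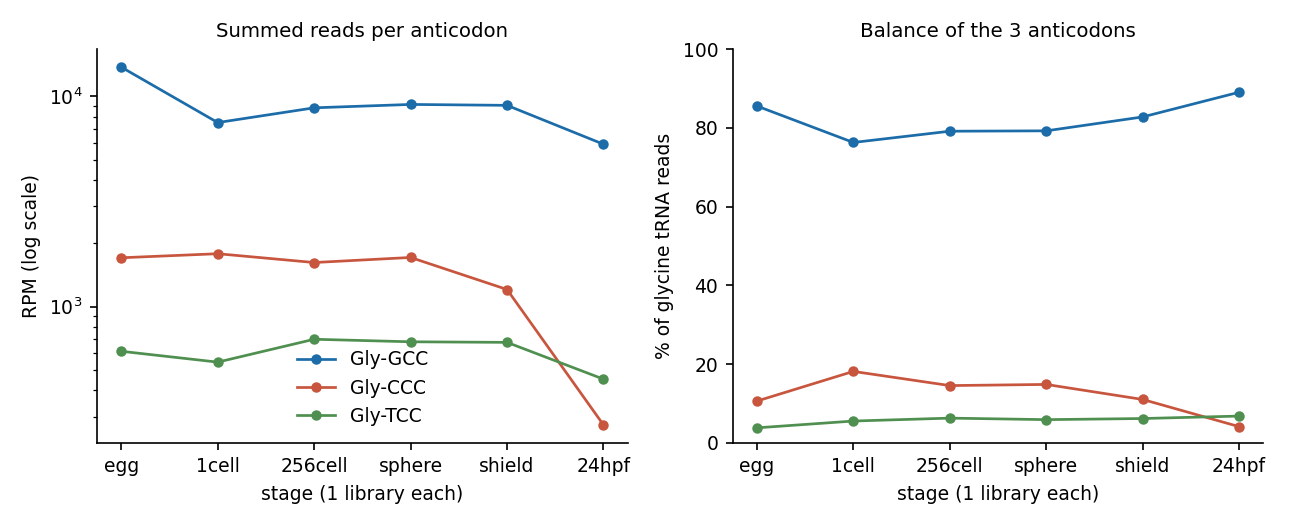
Left, summed RPM of each glycine anticodon (log scale) at the 6 stages. Right, share of all glycine tRNA reads in percent, with exact 95% intervals for counting error, mostly smaller than the points. Gly-CCC was lower than Gly-TCC only in the 24hpf library, where Gly-GCC held 89.1% of glycine reads.

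The main change lay inside Gly-GCC, where another variant took the lead between shield and 24hpf. Variant 1 held 68.5% of Gly-GCC reads in egg, 64.1% at 1cell and 63.4% at 256cell, and 62.7% at sphere, 54.2% at shield and 25.8% at 24hpf (exact interval 25.3 to 26.2). Variant 3, with A45G and C53T, held 2.15%, 1.93%, 2.90%, 3.47%, 10.7% and 47.8% (47.3 to 48.3). Shield was thus the first library in which variant 3 passed 5%, and 24hpf the only one in which it led. Variant 1 went from 9433 RPM in egg to 1527 at 24hpf, a log2 difference of -2.85 in its share of the cytoplasmic total, while variant 3 went from 296 to 2831 RPM, at 3.03. Among all anticodons past the filter that had more than 1 variant, the leader at 24hpf differed from the leader in egg in 10 of 29 (34.5%), so an exchange of leaders was not confined to glycine. The share of the Gly-GCC leader changed by -42.7 percentage points, and by -39.1 to -54.3 points with the other groupings of sequences, each of which also gave a new leader at 24hpf.

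The other named variants of Gly-GCC add A56T or carry C53T alone. Variant 2, which is variant 1 with A56T, held 14.1% in egg, 9.10% at 1cell and 11.7% at 256cell, and 12.9% at sphere, 12.6% at shield and 4.06% at 24hpf. Variant 6, which is variant 3 with A56T, held 0.0225%, 0.275%, 0.566%, 0.714%, 1.57% and 8.09%. At shield against sphere and at 24hpf against shield, variants 1 and 2 were both at a lower share of the cytoplasmic total and variants 3 and 6 both at a higher one. Earlier steps differed: at 1cell against egg variant 6 was at 3.05 and variant 3 at -0.37 (log2), and at 256cell against 1cell variant 2 was at 0.18 and variant 1 at -0.20. Variant 5, with C53T alone, held 0.905%, 1.52%, 1.84%, 2.08%, 5.06% and 4.73%, and its highest level was 459 RPM at shield. The 5 named variants held 76.9% to 90.5% of Gly-GCC reads, and 56 of the 70 variants were a single sequence. Outside the named variants, G15A was in 2.83% of covering reads in egg, 0.378% at 1cell and 4.06% at 256cell. It was then in 0.432% at sphere, 0.317% at shield and 0.143% at 24hpf. This single-base change thus differed strongly between libraries without following the order of stages.

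**Figure D2:**
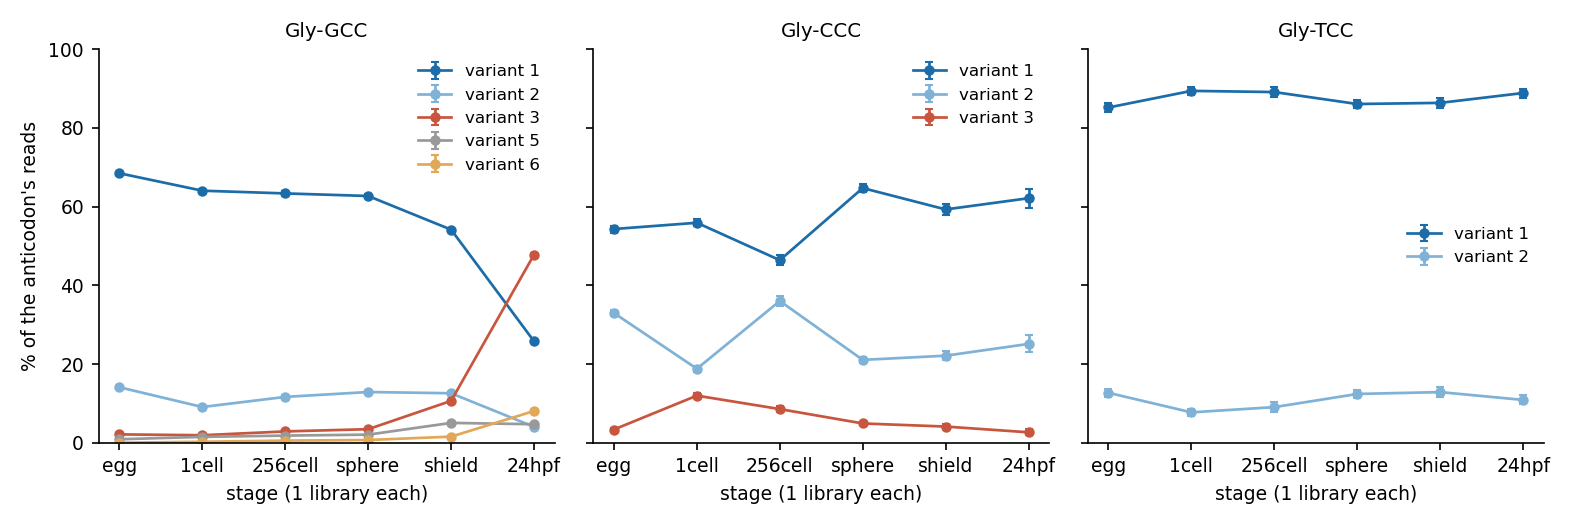
Share of an anticodon's reads held by each named variant, in percent, at the 6 stages, with exact 95% intervals for counting error. Variant 3 of Gly-GCC went from 10.7% at shield to 47.8% at 24hpf and passed variant 1, while variant 1 of Gly-CCC and of Gly-TCC led in every library.

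Since A45G and C53T separate the variants that changed places, the Gly-GCC sequences were then sorted by these 2 positions, a division chosen after the values were seen. Of the 198 sequences, 195 could be placed at both positions, and the other 3 held at most 0.283% of Gly-GCC reads in any library. Among the placed sequences, 83 had neither substitution, 35 had C53T only, 77 had both, and none had A45G only. Since sequences with fewer than 19 reads over all libraries were not listed, rarer reads with A45G only may have been missed. The type with neither held 95.9% of reads in egg, 94.0% at 1cell and 93.4% at 256cell, and 91.9% at sphere, 79.9% at shield and 35.4% at 24hpf. Reads with both held 2.19%, 2.27%, 3.58%, 4.48%, 12.7% and 57.6% (exact interval at 24hpf 57.1 to 58.1). Its share was lowest in the 2 first libraries and higher at each later stage.

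Both types took part in the exchange. The type with neither substitution stood at 13213 RPM, 7058, 8236, 8411, 7240 and 2091 from egg to 24hpf. The type with both stood at 301, 170, 316, 410, 1150 and 3399 RPM. The first was therefore highest in egg and lowest at 24hpf, and the second lowest at 1cell and highest at 24hpf. As shares of the cytoplasmic total, the first was at -0.67 at shield against sphere and -1.88 at 24hpf against shield, and the second at 1.03 and 1.48 at the same steps. Over the whole series they were at -2.88 (-2.91 to -2.86) and 3.27 (3.21 to 3.34). The type with C53T only stood between 258 and 332 RPM up to sphere, at 672 RPM at shield and at 414 RPM at 24hpf. It was the only type with its highest level at shield.

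**Figure D3:**
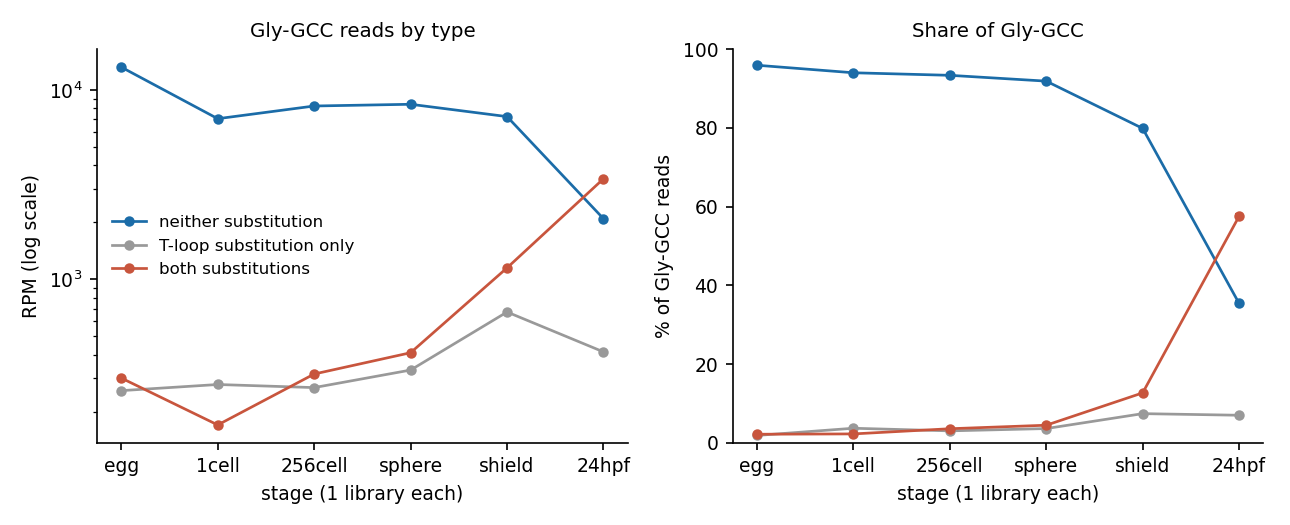
Gly-GCC reads by type, in RPM on a log scale (left) and as percent of Gly-GCC reads (right, with exact 95% intervals for counting error). Types are reads with neither substitution, with the T-loop substitution C53T only, and with both A45G and C53T. The type with both was at 4.48% at sphere, 12.7% at shield and 57.6% at 24hpf.

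In all glycine tRNAs the base at the place of C53T was then read. In egg, 92.7% of glycine reads of any anticodon had C as the second T-loop base, with 89.8% at 1cell and 88.4% at 256cell, and 87.6% at sphere, 76.7% at shield and 35.4% at 24hpf. Reads with C went from 14920 RPM in egg to 2353 at 24hpf, and reads with T from 1174 to 4276 RPM. As shares of the cytoplasmic total the first were at -2.89 and the second at 1.64. The higher level of reads with T came from Gly-GCC, where they were at 2.54 (interval 2.50 to 2.59), while the reads with T of Gly-CCC were at -0.43 (-0.90 to -0.0017) and those of Gly-TCC at -0.64 (-0.71 to -0.57). Reads with C were lower in each anticodon, at -2.88 in Gly-GCC, -2.91 in Gly-CCC and -3.03 in Gly-TCC (-5.42 to -2.76), where they are 1 sequence. With 6 reads at 24hpf, the Gly-TCC value was made less negative by the added 1 RPM. Its interval is from reads without that addition, so its size cannot be compared with those of Gly-GCC and Gly-CCC. Gly-CCC, nearly all with C at this place, was at -2.86 from egg to 24hpf, and the Gly-GCC type with neither substitution at -2.88, with overlapping intervals, although the 2 had differed at 1cell (0.71 and -0.25). Gly-TCC variant 3, whose T loop also has C, had 91 reads in egg, 94 at 1cell and 42 at 256cell, and 60 at sphere, 21 at shield and 6 at 24hpf. Outside glycine the C form was rare: GTCCG, followed by any 2 bases, C or T, and C, on the read strand, occurred in 0.0771% to 0.392% of the other cytoplasmic reads, and the same motif with GTTCG in 92.4% to 97.9%. These reads are mostly His-GTG, and without it the ranges were 0.0019% to 0.0281% and 69.1% to 89.5%. Whether C53T is genomic or was read at a modified base was not tested.

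Gly-CCC kept its leader at every stage, and the shares of its variants went up and down between the early libraries. With 1 library per stage, a change with stage cannot be told apart from a difference between libraries. Variant 1 held 54.3% of Gly-CCC reads in egg, 55.9% at 1cell and 46.4% at 256cell, and 64.7% at sphere, 59.3% at shield and 62.2% at 24hpf. Variant 2, with T37C at the last base of the anticodon loop, held 33.0%, 18.8%, 36.0%, 21.1%, 22.1% and 25.1%, highest where variant 1 was lowest. Over all Gly-CCC reads, C at position 37 was in 41.7%, 43.0%, 52.1%, 32.3%, 36.8% and 36.2%. Reads with T37C thus outnumbered those with T at 256cell only (interval 50.8 to 53.5). Variant 3 held 3.38%, 12.0%, 8.57%, 4.92%, 4.13% and 2.67%. It combines T37C with G49A and C61T, which face each other in the T stem and turn a G-C pair into an A-T pair. At 1cell it had 214 RPM against 57.8 in egg, 2.52 higher on the log2 scale as a share of the cytoplasmic total. Between egg and 24hpf all 3 variants were lower, variant 1 at -2.66 (-2.77 to -2.58), variant 2 at -3.24 (-3.41 to -3.11) and variant 3 at -3.05 (-3.68 to -2.76).

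Gly-CCC also had a form with C53T. Variant 5 held 0.833% of Gly-CCC reads in egg, 1.20% at 1cell and 1.19% at 256cell, and 1.06% at sphere, 4.29% at shield and 4.46% at 24hpf. Its level was 14.2, 21.5, 19.3, 18.2, 51.8 and 12.2 RPM in the same order, on 64 to 218 reads. Its share of the anticodon was therefore higher in the 2 last libraries, but its level was high only at shield. In RPM the Gly-GCC type with C53T only also had its highest level at shield, but at 24hpf stayed above its levels before shield. This depends on the scale. As a share of the cytoplasmic total it was at 0.45 (log2) at 24hpf against egg, lower than the 0.76 at 1cell against egg.

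Gly-TCC showed no exchange. Variant 1 held 85.2% of its reads in egg, 89.4% at 1cell and 89.1% at 256cell, and 86.1% at sphere, 86.4% at shield and 88.9% at 24hpf. Variant 2, the same tRNA with A57T at the fifth T-loop base, held 12.7%, 7.74%, 9.07%, 12.4%, 12.9% and 10.9%. Variant 3 held 2.09% in egg and 0.216% at 24hpf. In all 6 libraries the order of these 3 variants was the same.

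The fifth T-loop base, where an adenosine is commonly methylated, read as T in part of each tRNA. In the Gly-GCC type with neither substitution A56T was found in 17.1% of reads in egg, 11.6% at 1cell and 15.4% at 256cell, and 16.2% at sphere, 18.1% at shield and 13.5% at 24hpf. In the type with both substitutions the values were 1.03%, 12.2%, 15.8%, 15.9%, 12.4% and 14.1%. The intervals of the 2 types overlapped at 1cell, 256cell, sphere and 24hpf. At shield they did not, with 17.6% to 18.5% in the type with neither and 11.5% to 13.3% in the type with both. In egg the type with both had 22 such reads of 2136 (exact interval 0.647% to 1.56%). The type with C53T only had A56T in 0.629% to 2.47% of its reads in every library, a lower bound where its rarer sequences were not listed. Gly-CCC, with nearly the same body as Gly-GCC, was also lower than the Gly-GCC type with neither substitution. There A56T was in 4.19%, 1.25%, 1.97%, 3.09%, 4.11% and 1.84% of reads from egg to 24hpf, with the same limit. Whether these Ts are genomic or were made at a modified base during reverse transcription was not tested.

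The CCA tail was present on most Gly-GCC and Gly-CCC reads and on about as many Gly-TCC reads as lacked it. In Gly-GCC 89.2% of reads ended in CCA in egg, 91.3% at 1cell and 90.4% at 256cell, and 88.6% at sphere, 87.3% at shield and 78.7% at 24hpf (exact interval 78.2 to 79.1). In Gly-CCC the values were 87.7%, 90.3%, 89.1%, 87.9%, 89.4% and 84.7%. In Gly-TCC they were 50.9%, 52.4%, 54.8%, 57.4%, 57.8% and 53.2%. Most of the other Gly-TCC reads ended in CC after the last tRNA base, 33.4% to 44.8% of all its reads, against 7.89% to 17.8% in Gly-GCC and 7.52% to 13.0% in Gly-CCC.

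The lower CCA share of Gly-GCC at 24hpf went together with the exchange of types. In the type with neither substitution CCA ends were 88.7% to 91.6% of reads in all 6 libraries, and 88.7% at 24hpf. In the type with both they were 73.7% in egg, 74.8% at 1cell and 77.1% at 256cell, and 66.6% at sphere, 70.3% at shield and 71.5% at 24hpf. Reads that run past the tRNA's end without CCA, described below, are counted in this type. They were 11.5% of it at sphere, 5.51% at shield and 1.27% at 24hpf, and at most 0.381% earlier. The intervals of the type with both and the type with neither did not overlap in any library.

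The place where reads began differed between the types in the same way. Position 8 was the most frequent start of Gly-GCC reads, with 68.2%, 70.9%, 71.5%, 73.1%, 68.4% and 54.5% from egg to 24hpf. In the type with neither substitution 68.8% to 74.4% of reads began there, with 74.3% at 24hpf. In the type with both it was 33.7% to 41.6%, with 40.6% at 24hpf, and most of its other reads began further in. At 24hpf, for example, 15.0% of them began at position 11 and 18.7% at position 12, against 3.01% and 4.15% in the type with neither. The type with C53T only, at 70.9% to 81.1%, was like the type with neither. No listed Gly-GCC sequence was shorter than 60 nt. Reads that began further inside, most of all those without CCA, may therefore be missing from these shares and from the CCA shares.

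**Figure D4:**
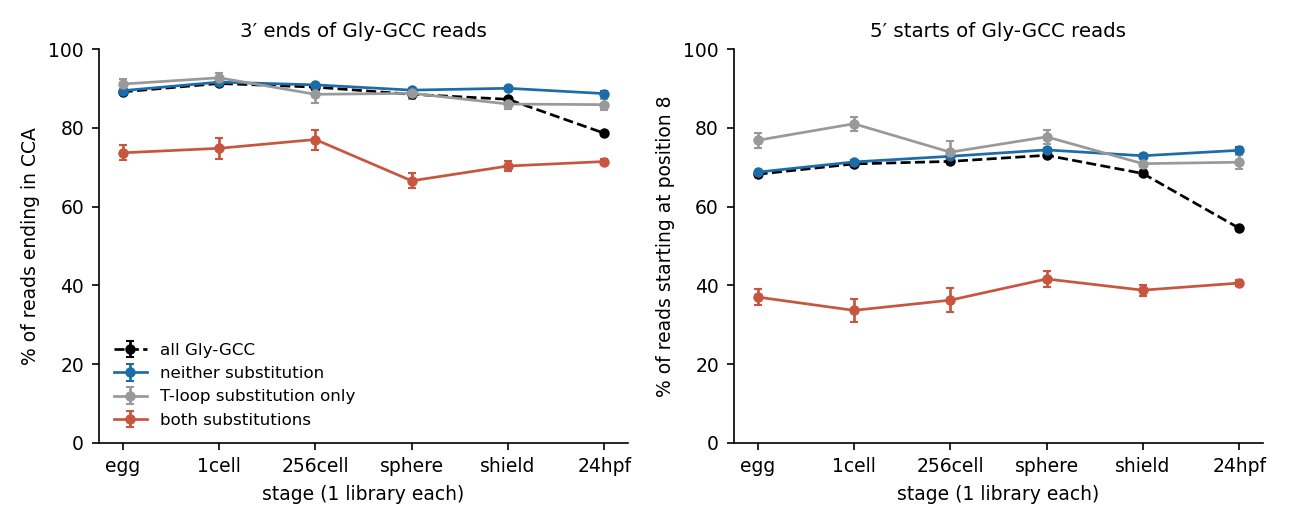
Percent of Gly-GCC reads that end in CCA (left) and that start at position 8 (right), for all Gly-GCC reads (dashed) and for the 3 types, with exact 95% intervals for counting error. The type with both substitutions was lower than the type with neither in every library, and the values over all Gly-GCC reads moved towards it at 24hpf.

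Complete reads were few. Reads starting at position 1 were 0.859% to 2.70% of Gly-GCC reads, 0.216% to 1.11% of Gly-CCC reads and 0.576% to 12.6% of Gly-TCC reads. In Gly-GCC most of them ended in CCA and were complete tRNAs. Of the reads covering base 2, C2T was found in 20.9% in egg (2201 reads) and 47.8% at 1cell (1238), 34.9% at 256cell (390), then 28.3% at sphere (826), 21.8% at shield (394) and 7.63% at 24hpf (393). All reads with C2T were of the type with neither substitution, and at 24hpf 274 of the 393 reads were of the type with both. Within the type with neither, C2T was found in 21.4%, 48.3%, 36.5%, 33.0%, 29.4% and 25.2% from egg to 24hpf (exact interval at 24hpf 17.7 to 34.0), so its share was highest at 1cell, and the interval at 24hpf includes the value in egg. Whether C2T is genomic was not tested. No listed Gly-CCC read covering this base carried the change. The complete read of variant 3 had 20, 3, 7, 7, 15 and 104 reads from egg to 24hpf, and that of variant 1 had 1266, 539, 187, 380, 158 and 70, with another 30 at 24hpf for variant 1 with C2T. At 24hpf the 2 variants were thus near each other among complete reads, while in egg variant 1 was far ahead.

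In Gly-TCC every read that began at position 1 stopped before the end of the tRNA. An example is shown with the anticodon in capitals; it stops in the T stem.
Gly-TCC read from the 5′ end: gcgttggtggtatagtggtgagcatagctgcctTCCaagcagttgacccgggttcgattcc
Such reads were 8.98% of Gly-TCC reads in egg, 12.6% at 1cell and 5.93% at 256cell, and 1.35% at sphere, 0.913% at shield and 0.576% at 24hpf. Their number was 391, 419, 138, 54, 26 and 16, and the 3 early libraries were all above the 3 later ones. The listed Gly-TCC reads of this kind were 60 to 65 nt long. No listed sequence was shorter than 60 nt, so reads from position 1 that stopped earlier are missing from the shares given here. In Gly-GCC the like reads were 0.0175% to 0.0393% from egg to shield and 0.335% at 24hpf. In Gly-CCC they were 0.726% in egg and at 1cell and 0.138% to 0.408% later. All such Gly-GCC reads were of the type with both substitutions, which was itself more frequent at 24hpf. Within that type they were 1.22% in egg (26 reads) and 0.584% at 24hpf (122 reads), with 0.310% to 0.856% between.

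A last group of Gly-GCC reads ran past the end of the tRNA without a CCA tail. Untrimmed tRNA transcripts have further bases of this kind, and whether these reads come from such transcripts was not tested. The group was formed after the values were seen and holds 9 sequences with at least 3 further bases. Of these, 3 are shown, 1 for each ending, with the bases past the last tRNA base in capitals.
Gly-GCC extended read, ending 1: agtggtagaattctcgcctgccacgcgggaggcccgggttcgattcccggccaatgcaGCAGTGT
Gly-GCC extended read, ending 2: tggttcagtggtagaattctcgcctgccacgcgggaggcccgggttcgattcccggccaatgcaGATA
Gly-GCC extended read, ending 3: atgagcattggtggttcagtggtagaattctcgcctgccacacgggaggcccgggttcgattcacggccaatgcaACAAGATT
The read with ending 3 is 83 nt long, also has 4 bases ahead of the tRNA's 5′ end, and differs from variant 3 by G38A and C60A. All 9 sequences carry both A45G and C53T, and none of the reads with neither substitution was of this kind.

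The reads of these 9 listed sequences were nearly absent from the 3 early libraries and present in all 3 later ones. They numbered 1 in egg, 2 at 1cell and 4 at 256cell, and 277 at sphere, 267 at shield and 266 at 24hpf, or 0.141, 0.328, 1.20, 47.0, 63.4 and 43.3 RPM. At 256cell the interval was 0.328 to 3.08 RPM and at sphere 41.6 to 52.9 RPM. Sphere was the first library in which they were frequent. The type with both substitutions, which includes them, held 3.58% of Gly-GCC reads at 256cell, 4.48% at sphere and 12.7% at shield. As a share of that type they were 11.5% at sphere, 5.51% at shield and 1.27% at 24hpf, and 0.0468% to 0.381% earlier. No extended read was listed under Gly-CCC or Gly-TCC. Sequences with fewer than 19 reads over all libraries were not listed, and each of the 9 passed that limit through its later reads. Extended reads spread over rarer sequences may therefore have been missed in the early libraries.

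**Figure D5:**
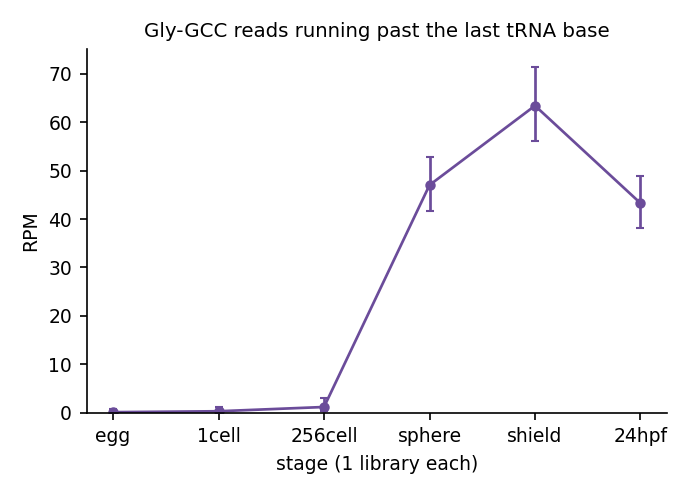
RPM of the 9 Gly-GCC read sequences that run at least 3 bases past the last tRNA base without CCA, at the 6 stages, with exact 95% Poisson intervals for counting error. They stood at 1.20 RPM or less up to 256cell and between 43.3 and 63.4 RPM from sphere on.

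The mitochondrial glycine tRNA, made from the mitochondrial genome and used only there, is a separate molecule. In the mitochondrial table trnG stood at 244 RPM, 378, 383, 354, 155 and 20.8 from egg to 24hpf, 15th of 22 mitochondrial tRNAs by mean. Its RPM was lowest at 24hpf, as that of the 3 cytoplasmic anticodons was. As a share of the mitochondrial tRNA reads trnG was at 0.182% in egg, 0.155% at shield and 0.0531% at 24hpf. This share changed less than its RPM, so part of the lower RPM was shared with other mitochondrial tRNAs.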

How the data were processed

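tRNA-size RNA of 6 zebrafish stages was sequenced, 1 library each. The authors deposited both tables, of cytoplasmic read sequences and of mitochondrial tRNAs, in RPM. The submitters' processing notes name cutadapt 3.4, Bowtie2 2.4.2 and GRCz11; what each tool did, and the rule for listing a sequence, is not given in the sources used here. In each library 100% of the values were whole multiples of 1 read within 0.01 reads, which gave read counts and totals. RPM was summed per anticodon label, 1 RPM was added and the sum divided by the cytoplasmic total, so fold changes are on the log2(value + pseudocount) scale. Anticodons averaging 10 RPM or more were compared. A final CCA, CC or C was left out when variants were formed, and to read bases and ends, sequences were placed on variant 1 with up to 6 substitutions. Share intervals are Clopper-Pearson, and ratio intervals are conditional binomial on reads without the added 1 RPM, for counting error only. Python 3.11.15 and edgeR 4.0.16 were used, and the grouping, intervals and edgeR step were tested on simulated data. In the edgeR simulation the libraries of a group were replicates, unlike the stages here. Named were all 3 anticodons and variants holding at least 5% of their anticodon's reads in any library. Members, lists and rules were chosen with earlier results of these data known. Alternatives were other scalings, pseudocounts, filters, baselines, read classes and groupings, and each library left out.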

Additional observations from a re-analysis of the deposited data

How the results depend on the processing

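No paired analysis was possible because each stage has 1 library. Of 85 alternative values, 24 stayed within the counting interval of the reported value or, for counts, within 1.5 times, 61 moved, and none of at least 2-fold size changed sign. At 24hpf against egg, Gly-GCC (-1.44) was at -1.22 as deposited RPM, -1.46 without His-GTG, -0.70 with median-ratio scaling, -1.60 for reads ending in CCA, -1.88 for reads of at least 70 nt, -1.22 against 1cell and -1.03 against 256cell. Gly-CCC (-2.86) was at -2.64 as RPM, -2.12 with median-ratio scaling, -1.31 for reads of at least 70 nt, -3.58 against 1cell and -3.02 against 256cell. Gly-TCC (-0.66) was at -0.44 as RPM, 0.078 with median-ratio scaling, -0.57 for CCA ends, 0.36 for reads of at least 70 nt, -1.14 against 1cell and -1.09 against 256cell. The Gly-TCC value for reads of at least 70 nt rests on a single listed sequence, with 70 reads in egg and 33 at 24hpf.

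Later against earlier stages, leaving out each library gave -0.88 to -0.30 for Gly-GCC, -2.04 to -0.45 for Gly-CCC and -0.63 to -0.067 for Gly-TCC. As RPM they were at -0.30, -1.04 and -0.056, with median-ratio scaling at -0.091, -0.83 and 0.15, and in edgeR at 0.063, -0.54 and 0.38. In edgeR 8 of 38 anticodons had an unadjusted p under 0.05. Anticodons at least 2-fold higher numbered 7, or 4 among those averaging 100 RPM or more and 10 with median-ratio scaling, and those lower 15, or 9 by that filter and 9 with that scaling.

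Gly-GCC held 87.2% of glycine reads with CCA ends in egg and 90.8% at 24hpf, and 95.1% and 88.6% of those of at least 70 nt. Reads ending in CC or CCA in egg were 99.3% of Gly-GCC, 98.3% of Gly-CCC and 89.6% of Gly-TCC. Among egg reads of at least 70 nt CCA ends were 99.97%, 100.0% and 100.0%. For Gly-CCC these reads were a few listed sequences and for Gly-TCC a single one that ends in CCA. The 2 values of 100.0% therefore depend only on which sequences were listed. The Gly-GCC leader in egg changed by -42.7 points, or -43.7 by single linkage, -54.3 with 1 substitution allowed and -39.1 with CCA ends. The Gly-CCC leader moved by 7.83 points, or -2.37 with 1 substitution allowed, and the Gly-TCC leader by 3.68, or 6.35 with CCA ends. The cause of these differences was not tested. Depth limits variants of a few reads and reads covering position 2, and the reads of at least 70 nt are few.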
